A study of Mus musculus with 4 samples.

Results

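The genes described here encode 10 scavenger and lipoprotein receptors, the surface and lysosomal proteins through which macrophages take up modified lipoproteins and other debris. They were chosen as a gene family, by symbol, with earlier results of these data known, namely Msr1, Marco, Cd36, Olr1, Scarb1, Scarb2, Cd68, Cxcl16, Stab1 and Lrp1. Each of the 10 stood on a single locus among the 23735 loci of the table, and all 10 were among the 10074 loci tested (those with a mean of 1 FPKM or more; FPKM are fragments per kilobase of transcript, scaled to the mapped fragments of a library). RNA had been sequenced from peritoneal macrophages of C57BL/6 mice 6 weeks old. The Ch25h_WT group has the genotype ApoE-/-/Ch25h+/+ and the Ch25h_KO group the genotype ApoE-/-/Ch25h-/-, so both are labelled as lacking apolipoprotein E and differ by label in Ch25h, the gene of cholesterol 25-hydroxylase. Cells were drawn into the peritoneal cavity by 3% thioglycolate given 3 days earlier and were cultured before RNA extraction. Each group held 2 libraries, from 12 mice per group, and the labels do not say how mice were shared between libraries, so the p-values reflect the scatter of these 4 libraries alone, which may be technical.

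Scavenger receptors bind oxidised and acetylated low density lipoprotein, apoptotic cells and bacterial surfaces. They are not turned down when a cell fills with cholesterol, and uptake through them turns macrophages into the foam cells of atherosclerotic plaque. The family is grouped in classes by protein structure rather than by descent. The enzyme Ch25h makes 25-hydroxycholesterol, an oxysterol that activates the liver X receptors (LXR) and holds back the processing of SREBP2.

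The targeted gene, Ch25h, stood at 63.3 and 65.3 FPKM where it is labelled as present and at 4.25 and 5.53 FPKM where it is labelled as deleted. Apoe was 614 and 609.9 FPKM against 3684 and 3373 FPKM, although all 4 libraries are labelled ApoE-/-, so the groups differed at a second lipoprotein gene whose product several of these receptors bind. The estimated depth was 9570000 to 12400000 fragments per library. Macrophage markers were detected in every library, and all 8 of 8 were tested. Of these, 6 had lower means in Ch25h_KO, with Adgre1 (418 and 425 against 381 and 388 FPKM) and Csf1r not overlapping. The other 2 were higher, also without overlap: Cd14 (5178 and 5288 against 6870 and 6751 FPKM) and Fcgr1 (4.31 and 4.22 against 4.83 and 4.78 FPKM). Their summed level was 26726 to 27673 FPKM in Ch25h_WT and 28102 to 28801 FPKM in Ch25h_KO, the higher sum coming from Cd14.

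Of the 10 receptors, 5 had lower values in the Ch25h_KO libraries with no overlap between groups and an unadjusted limma p under 0.05: Msr1, Marco, Cd36, Olr1 and Scarb2. Their mean FPKM was 14.02% to 19.5% lower. The other 5, Scarb1, Cd68, Cxcl16, Stab1 and Lrp1, differed by 9.55% or less. None of the 10 passed the threshold of a Benjamini-Hochberg adjusted p under 0.05 with limma, against 0.437% of all tested loci. At unadjusted p under 0.05 the count was 5 lower and 0 higher, against 20.9% of all tested loci (11.5% lower and 9.38% higher). With a library left out it was 4 or 5, as Marco missed without Ch25h_WT replicate 2, Cd36 without Ch25h_WT replicate 1, and both without Ch25h_KO replicate 2, where Lrp1 entered. With limma's trend and robust options all 5 passed the adjusted threshold, where 7.80% of loci did (3.76% on the lower side), and at a pseudocount of 5 there were 3 that passed (Scarb2, Msr1 and Olr1), where 3.15% of loci did (1.35% on the lower side). Groups that did not overlap were common in these 4 libraries, at 30.3% of loci lower in Ch25h_KO and 23.4% higher, and among the receptors the number was 6 lower and 0 higher. In bulk RNA, fewer cells of a type and less RNA per cell cannot be told apart.

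**Figure D1:**
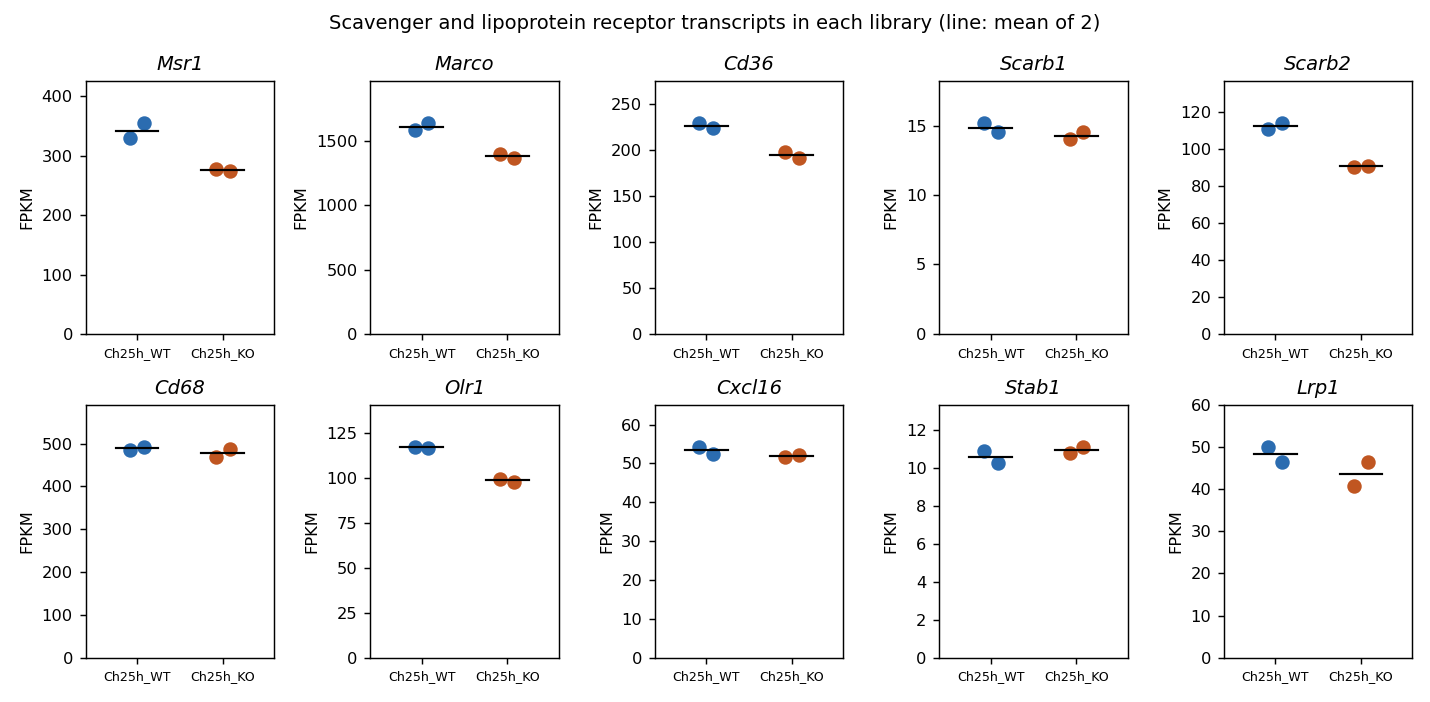
FPKM of each receptor (vertical axis from 0, with a scale for each gene) in the 2 Ch25h_WT libraries (blue) and the 2 Ch25h_KO libraries (orange), with the mean of each group as a line. The Ch25h_KO points lie below both Ch25h_WT points for Msr1, Marco, Cd36, Scarb2 and Olr1, and narrowly for Cxcl16, while the groups overlap for Scarb1, Cd68, Stab1 and Lrp1.

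Class A receptors are trimers with a collagen-like stalk. Msr1, the founding receptor for acetylated LDL, was 330 and 355 FPKM in Ch25h_WT and 277 and 274 FPKM in Ch25h_KO. Both Ch25h_KO values lay below both Ch25h_WT values, and the gap between groups was wider than the gap between either pair of replicates. The means were 342 ± 17.6 and 276 ± 2.40 FPKM (SD, n = 2 libraries per group), a difference of -0.31 on the log2(FPKM + 1) scale (SE 0.062, 95% interval -0.47 to -0.15, limma adjusted p = 0.111). Marco, which binds bacteria and particles and is typical of peritoneal and marginal zone macrophages, was 1583 and 1638 FPKM against 1400.3 and 1366 FPKM. It was the most abundant of the 10 in every library and made up 51.9% to 53.5% of their summed FPKM. Its log2 difference was -0.22 (SE 0.055, 95% interval -0.36 to -0.076, limma adjusted p = 0.141).

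Class B receptors cross the membrane at both ends and hold a large outer loop. Cd36, which binds oxidised LDL and long-chain fatty acids, was 229 and 224 FPKM in Ch25h_WT and 198 and 192 FPKM in Ch25h_KO. Its log2 difference was -0.22 (SE 0.054, 95% interval -0.36 to -0.075, limma adjusted p = 0.141), close to that of Marco. Scarb2, which encodes the lysosomal membrane protein LIMP-2, was 111 and 114 FPKM against 90.0 and 90.9 FPKM. With a log2 difference of -0.31 (SE 0.053, 95% interval -0.45 to -0.17), it had the smallest limma adjusted p of the 10, at 0.09998. Scarb1, which encodes the HDL receptor SR-BI, was 15.2 and 14.5 FPKM against 14.01 and 14.6 FPKM. Its groups overlapped, and the 95% interval of its log2 difference ran from -0.20 to 0.097 (limma adjusted p = 0.638). Within a library, Scarb2 was 7.30 and 7.83 times the level of Scarb1 in Ch25h_WT and 6.42 and 6.24 times in Ch25h_KO, so the ratio of these relatives was lower in both Ch25h_KO libraries.

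The class E receptor Olr1 encodes LOX-1, a lectin-like receptor for oxidised LDL that is also made by endothelial cells. Its values were 117.2 and 116.8 FPKM in Ch25h_WT and 99.5 and 97.9 FPKM in Ch25h_KO. Replicates differed by less than the groups did, with means of 117 ± 0.332 and 98.7 ± 1.14 FPKM (SD, n = 2 libraries per group). The log2 difference was -0.24 (SE 0.051, 95% interval -0.38 to -0.11, limma adjusted p = 0.120).

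Receptors of 3 further classes differed little. Cd68, a heavily glycosylated protein of the LAMP family that serves as a general macrophage marker, was 485 and 492 FPKM against 469 and 487 FPKM, with overlapping groups (95% interval of the log2 difference -0.18 to 0.11, limma adjusted p = 0.767). Cxcl16, both a membrane-bound chemokine and a receptor for oxidised LDL and phosphatidylserine, was 54.3 and 52.4 FPKM against 51.6 and 52.2 FPKM. Its groups did not overlap, but the gap of 52.4 to 52.2 FPKM was smaller than the gap between either pair of replicates (95% interval of the log2 difference -0.18 to 0.10, limma adjusted p = 0.713). Stab1, a large receptor that clears acetylated LDL and extracellular matrix fragments, was 10.9 and 10.2 FPKM against 10.8 and 11.1 FPKM. It was the single receptor with a mean above that of Ch25h_WT, with overlapping groups (95% interval of the log2 difference -0.11 to 0.20, limma adjusted p = 0.688). In GENCODE M21, Cxcl16 overlaps Zmynd15 and Stab1 overlaps Nt5dc2 on the opposite strand. Without strand their reads cannot be told apart, and the table lists Zmynd15 at 3.08 and 3.29 against 2.62 and 2.12 FPKM and Nt5dc2 at 16.4 and 17.1 against 14.8 and 13.6 FPKM.

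Lrp1, a giant lipoprotein receptor that takes up remnant lipoproteins carrying apolipoprotein E as well as proteases bound to their inhibitors, was 50.04 and 46.5 FPKM in Ch25h_WT and 40.8 and 46.5 FPKM in Ch25h_KO. One Ch25h_KO library was the lowest of the 4, and the other matched the lower Ch25h_WT library. The Ch25h_KO replicates differed by 13.1% of their mean, although the counting error estimated for Lrp1 was 1.23% and 1.27% in them. The log2 difference was -0.14 (SE 0.086, 95% interval -0.37 to 0.082, limma adjusted p = 0.404). Leaving out Ch25h_KO replicate 2 gave -0.24 and leaving out Ch25h_KO replicate 1 gave -0.051, and without Ch25h_WT replicate 1 or 2 it was -0.092 or -0.20, so its size rested on which libraries were kept.

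**Figure D2:**
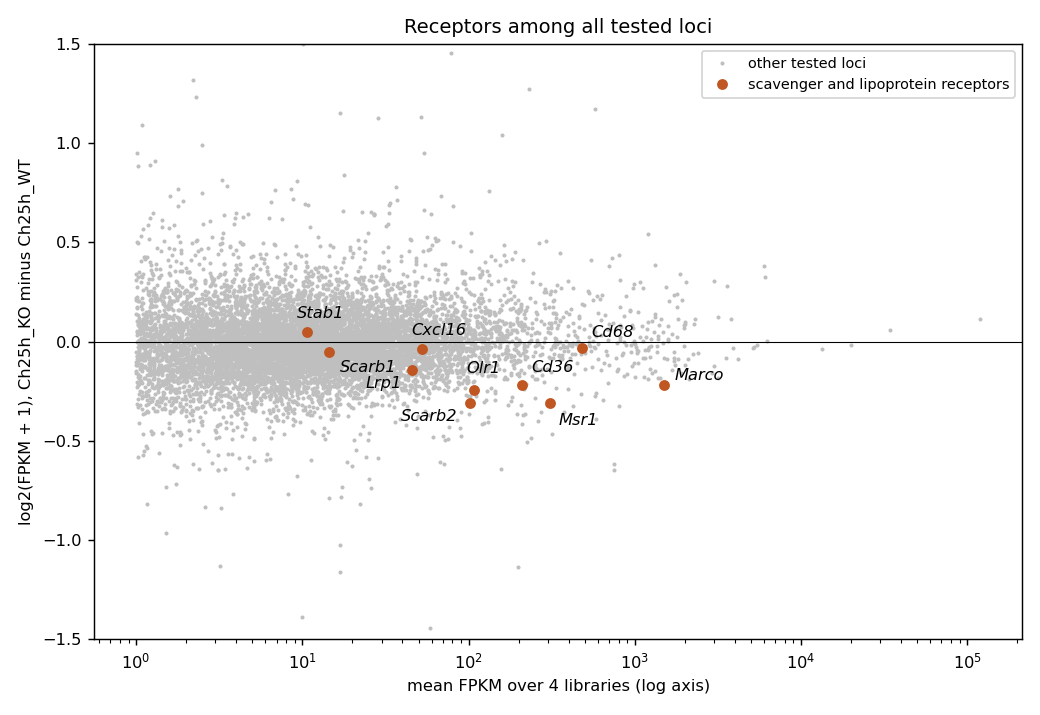
Difference on the log2(FPKM + 1) scale, Ch25h_KO minus Ch25h_WT (vertical axis), against mean FPKM over the 4 libraries (horizontal log axis) for all 10074 tested loci (grey) and the 10 receptors (orange). Marco, Msr1, Cd36, Olr1 and Scarb2 lie between -0.31 and -0.22, inside the cloud of all loci, and 41 loci beyond ±1.5 are not drawn.

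By mean FPKM the receptors ran from Marco through Cd68, Msr1, Cd36, Olr1, Scarb2, Cxcl16, Lrp1 and Scarb1 to Stab1. Within each group, the libraries of neighbours in that order did not overlap. The closest neighbours were Olr1 and Scarb2, at 117 ± 0.332 and 112 ± 2.13 FPKM in Ch25h_WT, and Cxcl16 and Lrp1, at 53.4 ± 1.29 and 48.3 ± 2.49 FPKM (SD, n = 2 libraries). All 5 receptors with the lower values were among the more abundant ones, above 92.6% to 99.4% of tested loci. Cd68, however, was above 98.1% of loci, and its groups overlapped. The estimated counting error was 0.514% to 4.82% of a value, largest for Scarb1.

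The summed level of the 10 receptors was 2985 and 3063 FPKM in Ch25h_WT and 2651 and 2632 FPKM in Ch25h_KO. Both Ch25h_KO sums were lower, at 0.873 of the Ch25h_WT mean. Set against Cd68 in the same library, Msr1 was 0.679 and 0.720 in Ch25h_WT and 0.591 and 0.562 in Ch25h_KO, and Marco was 3.26 and 3.33 against 2.99 and 2.80. The corresponding ratios of Scarb2 were 0.228 and 0.231 against 0.192 and 0.187. Ratios of Cd36 (0.473 and 0.454 against 0.422 and 0.394) and of Olr1 (0.242 and 0.237 against 0.212 and 0.201) were also lower in both Ch25h_KO libraries. These lower ratios follow from the FPKM values, because Cd68 itself was at 0.978 of its Ch25h_WT mean, and they add no separate support. Of other macrophage markers, Adgre1 and Csf1r were at 0.911 and 0.908 of their Ch25h_WT means, and Cd14 and Fcgr1 at 1.30 and 1.13. The receptors were not set against those markers.

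**Figure D3:**
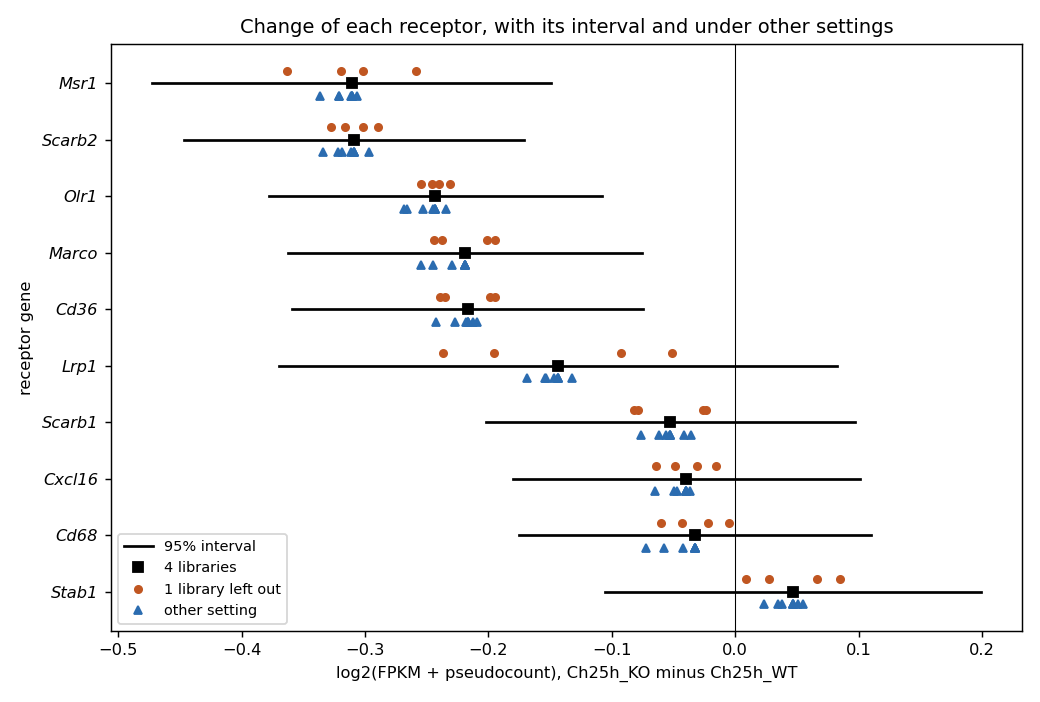
Difference of each receptor on the log2 scale (horizontal axis), Ch25h_KO minus Ch25h_WT, with the estimate from 4 libraries (black square), its 95% interval (line), the values with 1 library left out (orange circles) and those under other settings (blue triangles). The intervals of Msr1, Scarb2, Olr1, Marco and Cd36 lie below 0, and those of Lrp1, Scarb1, Cxcl16, Cd68 and Stab1 include 0.

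Promoter sequences are shown for the receptors with lower values that the RefSeq table of GRCm38.p6 holds, and for Cd68, whose values overlapped, to set a receptor of similar abundance beside them. The table matched 7 of the 10 receptors. Each window runs from 250 bases before to 50 bases after a start site, 5′ to 3′ on the strand of the gene, which is the minus strand for all 5. The windows are chr1:120504975-120505274 for Marco, chr5:17835847-17836146 for Cd36, chr5:92505608-92505907 for Scarb2, chr6:129507116-129507415 for Olr1 and chr11:69666121-69666420 for Cd68. Capitals mark matches, on either strand, to the AP-1 site TGAGTCA or the nuclear receptor site AGGTCA.
Marco: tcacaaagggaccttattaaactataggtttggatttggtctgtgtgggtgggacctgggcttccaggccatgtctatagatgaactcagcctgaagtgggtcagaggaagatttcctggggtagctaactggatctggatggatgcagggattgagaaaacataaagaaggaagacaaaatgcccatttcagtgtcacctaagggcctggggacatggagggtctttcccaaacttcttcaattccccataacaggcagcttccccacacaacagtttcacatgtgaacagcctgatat
Cd36: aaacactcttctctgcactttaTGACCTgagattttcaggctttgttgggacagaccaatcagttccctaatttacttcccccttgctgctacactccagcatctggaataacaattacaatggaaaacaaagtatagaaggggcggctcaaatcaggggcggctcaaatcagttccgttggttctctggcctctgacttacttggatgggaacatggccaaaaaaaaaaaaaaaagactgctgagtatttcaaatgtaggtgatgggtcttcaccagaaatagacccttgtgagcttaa
Scarb2: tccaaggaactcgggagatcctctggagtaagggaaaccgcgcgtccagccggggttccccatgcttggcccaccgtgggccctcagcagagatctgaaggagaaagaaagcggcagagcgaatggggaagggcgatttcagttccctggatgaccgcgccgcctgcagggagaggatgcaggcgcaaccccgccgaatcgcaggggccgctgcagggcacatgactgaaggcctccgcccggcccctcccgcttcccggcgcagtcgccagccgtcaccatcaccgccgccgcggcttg
Olr1: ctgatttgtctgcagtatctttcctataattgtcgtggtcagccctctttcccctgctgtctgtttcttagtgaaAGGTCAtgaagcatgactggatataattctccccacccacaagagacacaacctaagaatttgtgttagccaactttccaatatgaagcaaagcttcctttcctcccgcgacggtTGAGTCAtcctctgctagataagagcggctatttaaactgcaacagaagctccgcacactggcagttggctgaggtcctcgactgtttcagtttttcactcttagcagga
Cd68: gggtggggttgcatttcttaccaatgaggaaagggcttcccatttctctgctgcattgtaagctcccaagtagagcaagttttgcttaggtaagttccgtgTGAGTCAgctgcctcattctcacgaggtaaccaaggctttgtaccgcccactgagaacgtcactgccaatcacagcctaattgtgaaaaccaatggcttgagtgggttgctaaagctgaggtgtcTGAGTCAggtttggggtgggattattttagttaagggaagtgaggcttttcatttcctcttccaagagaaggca

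The AP-1 letters TGAGTCA, whose reverse complement is TGACTCA, stood 60 bases before the start of Olr1, and 149 and 24 bases before the start of Cd68. Among all 32851 promoter windows, 5.2% held them. The site AGGTCA stood 175 bases before the start of Olr1 and, on the opposite strand, 228 bases before that of Cd36, against 16.3% of all windows. None of the 7 matched receptor windows held 2 direct copies of AGGTCA 4 bases apart, as LXR reads them (0.0152% of all windows), or 1 base apart, as the peroxisome proliferator receptors do (0.0396%). The PU.1 letters GAGGAAGT (3.20% of all windows), the E-box CACGTG (7.15%) and the consensus sites of NF-kB (0.155%) and of SREBP (0.0913%) were absent from them too. Msr1 had no window. The other receptors with lower values shared none of the searched letters as a group, and GC content ran from 43.0% (Cd36) to 67.3% (Scarb2) among them.

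Other scavenger receptors were read from a list of 19 genes, of which 10 were tested. None passed the adjusted threshold with limma, and 3 were lower and 2 higher at unadjusted p under 0.05. That is 50% of those tested, the same share as among the 10 receptors, against 20.9% of all tested loci (11.5% lower and 9.38% higher). The list's median log2 difference was 0.012, against -0.014 for all tested loci and -0.18 for the 10 receptors. With a library left out the median of this list was 0.024 to 0.12 (0.090 without Ch25h_WT replicate 1, 0.12 without Ch25h_WT replicate 2), and that of the 10 receptors was -0.20 to -0.14. The filter was applied again to the libraries kept. Without either Ch25h_WT library it let in Cd163l1 (0.686 and 0.387 against 1.45 and 1.18 FPKM) and Cd209d (0.653 and 0.408 against 1.19 and 1.41 FPKM). Both reached it only through Ch25h_KO, where they are high, so the medians of 0.090 and 0.12 are of a changed set of genes. Colec12, a class A relative of Msr1 and Marco, was 21.5 and 21.2 FPKM against 17.0 and 15.5 FPKM (limma adjusted p = 0.102), and both Ch25h_KO libraries were lower. Cd5l, a secreted scavenger protein of macrophages with the cysteine-rich domain that Marco also carries, was 661 and 666 against 495 and 515 FPKM (limma adjusted p = 0.0783). On the higher side, Cd14, the lipopolysaccharide co-receptor, was 5178 and 5288 against 6870 and 6751 FPKM (limma adjusted p = 0.0783), and the lectin gene Cd209a was 19.8 and 18.9 against 27.1 and 23.8 FPKM (limma adjusted p = 0.120). Pattern recognition receptors of this list thus lay on both sides of 0.

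Among other receptors of the family of Lrp1, 8 of 14 were tested and none passed with limma. At unadjusted p under 0.05, 1 was lower and 1 higher, 25% of those tested against 20.9% of all tested loci. The median log2 difference was -0.068 (-0.085 to -0.017 with a library left out). Sorl1, a sorting receptor, was 8.27 and 7.72 against 5.63 and 6.21 FPKM, and Lrp12 was 9.71 and 8.74 against 11.7 and 11.6 FPKM (limma adjusted p = 0.110 and 0.124). The groups did not overlap for either gene, and their directions were opposite. Lrp10 was 109 and 105 against 118 and 114 FPKM.

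Partners of the receptors were read from a list of 15 chaperones, adaptors and proteases, 13 of them tested. Cav1 (caveolin 1, the coat protein of caveolae, where Cd36 and SR-BI gather) passed the threshold with limma and fell from 22.1 and 21.6 FPKM to 12.4 and 12.2 FPKM (log2 change -0.78, limma adjusted p = 0.0228), though not with any 1 library left out. At unadjusted p under 0.05 the list had 4 lower and 1 higher, 38.5% of those tested against 20.9% of all tested loci. Its median log2 difference was -0.030 (-0.079 to -0.0070 with a library left out). Lrpap1, the chaperone that keeps Lrp1 from binding ligands in the endoplasmic reticulum, was 50.9 and 53.8 against 52.5 and 52.1 FPKM, with overlapping groups. Adam10 and Adam17, the proteases that shed Cxcl16 from the surface, were 33.6 and 29.6 against 31.995 and 29.8 FPKM and 66.7 and 62.7 against 56.8 and 57.3 FPKM. The endocytic adaptor Dab2 was 122 and 128 against 139 and 139.7 FPKM (limma adjusted p = 0.224). Pdzk1, the adaptor that holds SR-BI at the membrane in liver, was 1.13 and 1.24 against 0.927 and 0.862 FPKM, close to the limit for testing. It is counted among the 4 lower genes, but it reached that limit only through Ch25h_WT, where it is high. Ap2a1 (34.0 and 32.9 against 35.5 and 36.1 FPKM) encodes a subunit of the clathrin adaptor. Cxcr6, the receptor for Cxcl16, was low at 1.28 and 0.851 against 2.64 and 2.38 FPKM (limma adjusted p = 0.0915).

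Genes that handle the lipid brought in by Cd36 and lipoproteins formed a list of 17, of which 16 were tested and none passed with limma. At unadjusted p under 0.05, 4 were lower and 1 higher, 31.25% of those tested against 20.9% of all tested loci. The median log2 difference was -0.011 (-0.018 to -0.0033 with a library left out). Lipa, the lysosomal lipase that frees cholesterol from ingested lipoproteins and that lies next to Ch25h in the genome, was 148.5 and 148.6 against 113 and 115 FPKM (limma adjusted p = 0.0783). Lpl, the lipoprotein lipase, was 29.6 and 30.4 against 23.7 and 24.1 FPKM (limma adjusted p = 0.0988), and the fatty acid carrier Fabp4 was 412 and 453 against 380.3 and 351 FPKM (limma adjusted p = 0.197). The tetraspanin gene Cd9, whose product sits beside Cd36 in the membrane, was 402 and 439.6 against 337 and 320.3 FPKM (limma adjusted p = 0.111). The Src family kinases that signal from Cd36 lay on the other side, with Fyn at 17.8 and 18.1 against 20.1 and 21.7 FPKM and Lyn at 104 and 105 against 113 and 115 FPKM (limma adjusted p = 0.180 and 0.255).

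For lysosomal membrane and lumen, the neighbours of Cd68 and Scarb2, 10 of 11 genes were tested and none passed with limma. At unadjusted p under 0.05, 2 were lower and 0 higher, 20% of those tested against 20.9% of all tested loci. The median log2 difference was -0.021 (-0.032 to -0.0097 with a library left out). Lamp1, of the same family as Cd68, was 681 and 690.1 against 668 and 659 FPKM. The proteases Ctsd (3341 and 3366 against 2930 and 2967 FPKM) and Ctsb (1372 and 1394 against 1222 and 1277 FPKM) were the lower ones at unadjusted p (limma adjusted p = 0.162 and 0.237).

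Genes of apoptotic cell uptake, a task that Cd36, Stab1 and Lrp1 share, formed a list of 20 with 16 tested, made up of receptors, bridging ligands, complement and signalling genes. None passed with limma, and 4 were lower and 5 higher at unadjusted p under 0.05, 56.25% of those tested against 20.9% of all tested loci. The median log2 difference was -0.024 (-0.041 to 0.028 with a library left out, the positive value being that without Ch25h_KO replicate 1). Itgb3, the integrin subunit that works with Cd36 in engulfment, was 3.90 and 4.13 against 2.43 and 1.995 FPKM (limma adjusted p = 0.0783), and Calr, the calreticulin that Lrp1 recognises on dying cells, was 691 and 726 against 566 and 589 FPKM (limma adjusted p = 0.113). Timd4, a receptor for phosphatidylserine, was 46.3 and 47.6 against 59.7 and 63.9 FPKM, and the complement gene C1qa was 892 and 875 against 1081 and 1047 FPKM (limma adjusted p = 0.0966 and 0.113).

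Of 18 genes that control the receptors, 17 were tested and none passed with limma. At unadjusted p under 0.05, 1 was lower and 1 higher, 11.8% of those tested against 20.9% of all tested loci. The median log2 difference was 0.059 (0.021 to 0.085 with a library left out). Nr1h3, which encodes LXR alpha, was the lower one, at 30.8 and 27.7 against 19.6 and 21.3 FPKM, and Fos, a subunit of AP-1, was the higher one, at 26.4 and 26.3 against 33.0 and 33.0 FPKM (limma adjusted p = 0.0966 for each). Pparg, the nuclear receptor that drives Cd36, was below 1 FPKM on average, at 0.914 and 0.707 against 0.792 and 1.13 FPKM, and was not tested. Spi1, which encodes PU.1 and is needed for Msr1 expression, was 353 and 335 against 371 and 369 FPKM. Maf (6.74 and 6.07 against 7.65 and 7.18 FPKM) and Csf1r (306 and 316 against 274 and 291 FPKM) also had groups that did not overlap, in opposite directions. Of 14 LXR efflux targets, all tested, Apoc1 passed with limma and was lower (limma adjusted p = 0.0161), though not with any 1 library left out. At unadjusted p under 0.05 there were 6 lower and 1 higher, 50% of those tested against 20.9% of all tested loci. The median log2 difference of these targets was -0.016 (-0.046 to -0.029 with a library left out). Apoc4, beside Apoc1, was 21.2 and 26.2 against 10.5 and 9.46 FPKM and Apoc2 was 52.4 and 51.05 against 75.5 and 73.9 FPKM (limma adjusted p = 0.0522 for each), on opposite sides. Apoc1, Apoc4 and Apoc2 adjoin Apoe, which itself differed between the groups (614 and 609.9 against 3684 and 3373 FPKM). Whether their differences belong to that locus or to LXR was not tested. The sterol exporter Abca1 was 70.05 and 65.7 against 74.1 and 79.0 FPKM (limma adjusted p = 0.244). Abcg1, also of this list, lay on the other side, at 11.7 and 13.4 against 9.99 and 10.2 FPKM (limma adjusted p = 0.160). This list includes Nr1h3, Srebf1 and Mylip, which also stand on other lists here.

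**Figure D4:**
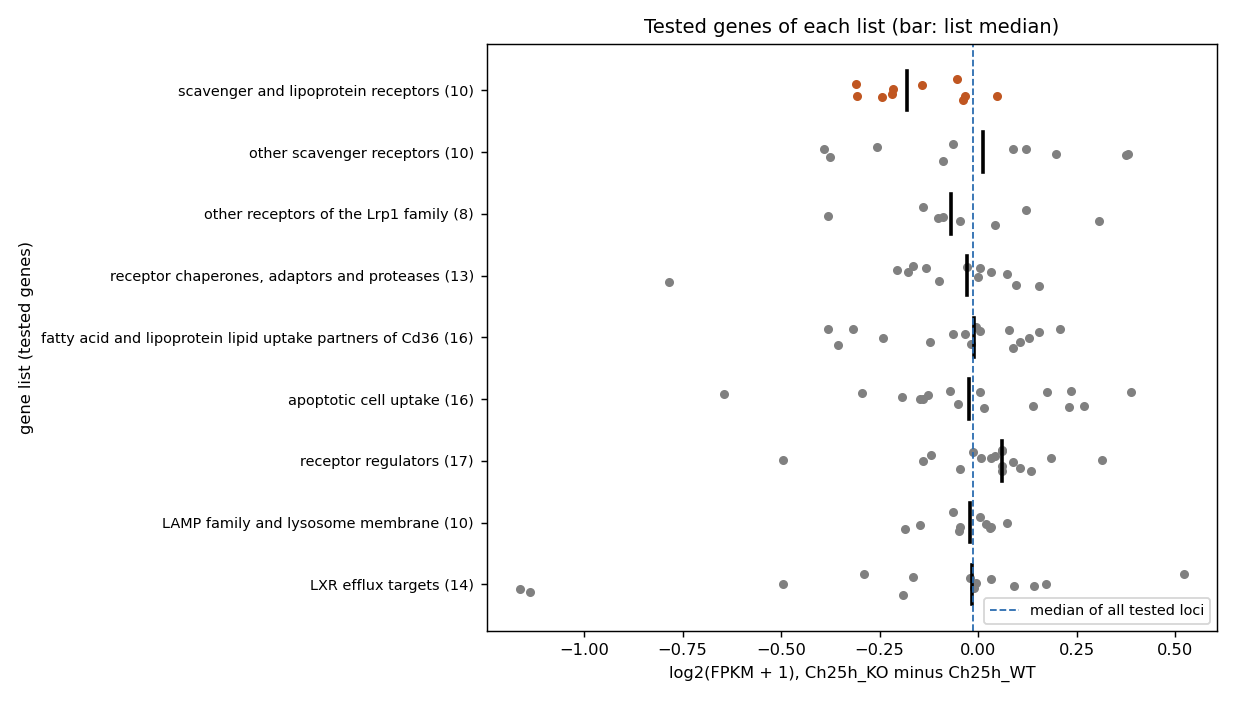
Log2(FPKM + 1) difference, Ch25h_KO minus Ch25h_WT (horizontal axis), of every tested gene in each list (dots; number tested in brackets), with the list's median as a bar and the median of all tested loci, -0.014, as a dashed line. The median of the 10 receptors is -0.18, and the medians of the other lists lie between -0.068 and 0.059 in these 4 libraries. With a library left out, those of the other lists lie between -0.085 and 0.12. The filter was then applied again, and the 0.12 is of a list whose tested genes changed.

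Several cell types other than macrophages make these receptors, and their markers were read in the same libraries. Endothelial cells make Olr1, Stab1, Scarb1 and Cd36. Of 9 endothelial markers Tek, Emcn and Stab2 were listed at 0 in all 4 libraries, and Cdh5, Kdr and Vwf were at 0.10 FPKM or less. The summed endothelial level was 40.3 to 43.0 FPKM in Ch25h_WT and 56.4 to 57.3 FPKM in Ch25h_KO, nearly all from Eng and Pecam1, which macrophages also express. Eng was 34.9 and 37.8 against 52.1 and 52.6 FPKM, while Pecam1 was lower, at 5.01 and 5.11 against 4.12 and 4.42 FPKM. Adipocytes make Cd36 and Lrp1, and 5 of 7 adipocyte markers were listed at 0 in every library. Platelets carry Cd36. Of the platelet markers Gp9 was listed at 0, Gp1bb was 2.32 and 2.99 against 2.497 and 2.77 FPKM, Ppbp was 0.902 and 0.922 against 1.69 and 0.745 FPKM, and Itga2b was 0.0890 and 0.111 against 0.189 and 0.202 FPKM. The summed erythroid and platelet level, 34.7 to 38.4 FPKM in Ch25h_WT and 49.1 to 51.2 FPKM in Ch25h_KO, was mostly haemoglobin.

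Leukocyte markers lay on both sides. Mast cell markers summed to 226 to 231 FPKM in Ch25h_WT and 158 to 161 FPKM in Ch25h_KO. Of these 8, 7 were tested and 5 were lower at unadjusted p under 0.05, as were 11.5% of all tested loci. B cell markers summed to 341 to 345 and 307 to 322 FPKM, and neutrophil markers to 73.4 to 83.7 and 117 to 118 FPKM. The neutrophil sum was mostly S100a8 (56.3 and 66.6 against 99.0 and 98.7 FPKM). S100a9, the other neutrophil marker tested, was also higher without overlap, at 13.9 and 13.4 against 14.96 and 16.5 FPKM (limma adjusted p = 0.224). The remaining neutrophil markers had means under 1 FPKM over the 4 libraries and were not tested. Among them, Camp and Cxcr2 were lower and Ngp higher in both Ch25h_KO libraries, and Mmp8, Retnlg and Ltf overlapped. Markers of large resident peritoneal macrophages, which are rich in Marco, summed to 1959 to 2023 and 2009 to 2073 FPKM. At unadjusted p under 0.05, 3 of 8 were higher and 0 lower, against 9.38% and 11.5% of all tested loci. Monocyte markers summed to 2095 to 2133 and 1839 to 2009 FPKM, of which Fn1 made up most. Within that list Ly6c2, a marker of inflammatory monocytes with a near-identical copy in Ly6c1, rose from 3.12 and 2.70 FPKM to 14.3 and 17.3 FPKM (limma adjusted p = 0.0117), and Chil3 was 15.4 and 14.1 against 18.6 and 18.3 FPKM (limma adjusted p = 0.120). T and NK cell markers summed to 34.9 to 37.1 and 36.95 to 40.3 FPKM, dendritic cell markers to 44.1 to 44.8 and 49.6 to 53.4 FPKM, and mesothelial and fibroblast markers to 1.39 to 1.57 and 4.15 to 4.997 FPKM. The part of these cell markers in the receptor values was not tested.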

How the data were processed

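Values came from 4 RNA-seq libraries, 2 per group. Total RNA came from a mirVana kit, per the labels' protocols. The submitters' processing notes list Cufflinks 2.2.1, TopHat2 2.0.14 and bcl2fastq, with mm9 as the mouse build. For annotation, strand setting, filters and scaling, nothing is given in the sources used here. For each line and library 1 value was deposited by the authors, taken as FPKM from the Cufflinks identifiers and range, since the header names no unit. The table's 24192 lines were joined into 23735 loci. Every per-sample column was used (0 left out).

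The 10074 loci whose mean reached 1 FPKM were fitted on log2(FPKM + 1) by genotype alone, using limma 3.58.1 (R 4.3.3), and a Benjamini-Hochberg adjusted p under 0.05 counted as a pass. Differences on this scale understate those of low genes. The test was checked on simulated data, where few loci, drawn at any level of expression, were changed. Differences of the receptors' size rarely passed there, but that rate need not hold for the receptors themselves. A missed threshold does not show that a receptor was unchanged. Depth was estimated from low values, 92.3% of 2274 loci holding whole fragments within 0.01, with GENCODE M21 transcript lengths of 419 loci. Estimated counting errors use the longest transcript and cover counting only. RefSeq promoters are of GRCm38.p6, another build than mm9, and were matched by symbol.

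Named genes are the 10 receptors, Ch25h, Apoe, partners known to act with a receptor, and from each list the genes with the smallest p, at most 2 higher and 2 lower. A few further list and marker genes, and the genes overlapping Cxcl16 and Stab1, were named after their values were seen. The receptors and lists were chosen with earlier results of these data known. Pseudocounts, filters, scalings, spread models, a replicate block and leaving out each library were tried as alternatives. Some list genes are not reported here.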

Additional observations from a re-analysis of the deposited data

How the results depend on the processing

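In all 13 alternatives 9 of the 10 receptors kept a negative log2 difference and Stab1 a positive one. Receptors past the adjusted threshold with limma numbered 0, but 3 at a pseudocount of 5 and 5 with the trend and robust options. At unadjusted p under 0.05 they numbered 4 to 5 with a library left out. Marco missed without Ch25h_WT replicate 2, Cd36 without Ch25h_WT replicate 1, and both without Ch25h_KO replicate 2, where Lrp1 entered. Of all loci 44 passed, against 317 at a pseudocount of 5, 18 with no filter, 175 among loci of at least 5 FPKM, 786 with trend and robust, and 16 to 21 with a library left out, where the lone library of a group is assumed to vary like the others. In the other lists 2 genes passed (Cav1 and Apoc1), against 16 at a pseudocount of 5, 11 among loci of at least 5 FPKM, 4 with upper quartile scaling, 25 with trend and robust, and 0 to 0 with a library left out. The median of other scavenger receptors (0.012) became -0.011 with scaling to the summed FPKM without Saa3 and 0.024 to 0.12 with a library left out. Without either Ch25h_WT library, Cd163l1 and Cd209d passed the filter through Ch25h_KO and entered that list. The median of apoptotic cell uptake ran from -0.041 to 0.028 with a library left out (0.028 without Ch25h_KO replicate 1). With a replicate block, 6 loci and 0 genes of the other lists passed. The deviations of same-numbered libraries correlated at 0.012. With 2 libraries per group this cannot settle whether the numbers pair them. Beyond the changes in which genes passed the filter, the cause of these shifts was not tested. With 2 libraries per group, the 95% intervals of the receptors span 0.27 to 0.45 log2 units.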

Other observations

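Genes of mesothelial cells and fibroblasts were near the lower limit of the table, yet 7 of 9 were higher in both Ch25h_KO libraries than in both Ch25h_WT libraries, as were 14.5% of the 5137 loci that were above 0 in at least 1 library and had a mean under 1 FPKM. The collagen gene Col1a2 was 0.233 and 0.182 FPKM in Ch25h_WT and 0.690 and 0.719 FPKM in Ch25h_KO, and Col3a1 was 0.242 and 0.319 against 0.831 and 0.820 FPKM. Dcn, which encodes the matrix proteoglycan decorin, was 0.712 and 0.452 against 2.47 and 1.53 FPKM. It was the single gene of the list above the filter (limma adjusted p = 0.111). Dcn reached the filter only through Ch25h_KO, where it is high, so its p-value gives no support to the difference.

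Resident macrophage genes did not move together. Without overlap between groups, 4 of 8 were higher and 2 lower in Ch25h_KO, against 23.4% and 30.3% of all tested loci. The lower ones were Alox15 (206 and 213 against 192 and 200 FPKM) and Garnl3 (2.03 and 2.26 against 1.45 and 1.94 FPKM), with limma adjusted p = 0.389 and 0.302. Icam2 was 156 and 159 against 207 and 213 FPKM and Lyve1, a hyaluronan receptor, was 2.87 and 2.81 against 3.67 and 3.62 FPKM, while Gata6, the transcription factor that defines large peritoneal macrophages, was 23.6 and 25.5 against 27.7 and 25.003 FPKM with overlapping groups (limma adjusted p = 0.0780, 0.110 and 0.522).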
